A study of Mus musculus with 101 samples.

Results

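Nphs1 encodes nephrin, and Nphs1as is a transcript of the opposite strand that overlaps it. Both were chosen by the correlation of sense and antisense counts over embryos and by their rise in F1 females of the highest dose. They are 2 of the 15423 genes in the deposited table of RNA-seq counts. Nephrin is a transmembrane adhesion protein of the immunoglobulin superfamily. It spans the slit diaphragm between the foot processes of podocytes in the kidney, where it binds proteins of the Neph family and signals to the actin cytoskeleton, and mutations of the human gene cause congenital nephrotic syndrome. Nephrin has also been described outside the kidney, among other places in Sertoli cells of the testis.

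The libraries came from primordial germ cells of OG2 mouse embryos, 48 females and 53 males of 56 litters. OG2 mice carry EGFP under the Pou5f1 promoter. Pregnant F0 dams received sesame oil (the vehicle, dose 0) or benzo[a]pyrene, a polycyclic aromatic hydrocarbon, by mouth, over more days for the F2 and F3 lineages than for the F1 embryos. Gonads with the attached mesonephros were taken at E13.5 and dissociated, and the EGFP-positive cells were sorted. Then 20000 to 30000 cells a library were turned into cDNA with an oligo(dT) primer. F1 held 5 vehicle, 2, 5 and 5 treated females and 5 vehicle, 2, 6 and 8 treated males, at 0.033, 0.2 and 2 mg/kg-day. The same order of doses holds for the next counts. F2 held 6 vehicle, 3, 3 and 3 embryos of each sex. F3 held 6 vehicle, 4, 2 and 4 females and 6 vehicle, 4, 4 and 3 males.

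Values are normalized counts, that is, gene counts that the authors divided by a size factor per embryo. Their sums ran from 758171 to 1594837 an embryo. Whole reads could be recovered from the values of 99 embryos, which held 5004382 to 87240533 reads with a median of 7789673. A group of 11 F1 libraries stood apart with at least 21247642 reads, while the others had at most 12211582. Among the deep libraries were 1 vehicle female, 2 females at 0.2 and 2 at 2 mg/kg-day, and 2 vehicle males, 1 male at 0.2 and 3 at 2 mg/kg-day. In a clustering of 3089 genes, 100 embryos joined their own sex, and F3 male D1390.5 (0.2 mg/kg-day) joined the females. The label of primordial germ cells was checked on Ddx4, Dazl, Pou5f1, Dppa3, Nanos3 and Kit. Their summed level was 2781 to 5009 in females and 2585 to 6475 in males, with Dppa3, a maternal factor that guards methylation, as the most abundant, and none of the 6 had a median of 0 in either sex. Embryos of a litter shared a mother and are not independent. Litters of F2 and F3 may also descend from the same F0 dam, which no fit here took into account.

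Nphs1 was present in every embryo. In the 17 vehicle females it ran from 0.200 to 3.92 normalized counts, with a median of 0.887. In the 17 vehicle males it ran from 6.73 to 25.2, with a median of 16.1. Every vehicle male therefore stood above every vehicle female. In the fit of all genes by limma, which uses log2 values, the male level was higher by 3.49 on the log2 scale (SE 0.22, 95% confidence interval 3.05 to 3.94, adjusted p = 1.26e-24). Nphs1as, a long noncoding RNA of unknown function here, ran from 0.200 to 3.92 in the vehicle females, with a median of 0.903. It ran from 9.95 to 31.2 in the vehicle males, with a median of 18.7, again with no overlap of the sexes. Its log2 difference was 3.66 (SE 0.21, 95% confidence interval 3.24 to 4.09, limma adjusted p = 6.43e-27). Both genes thus passed an adjusted p of 0.05 with all 17 males above all 17 females, in a comparison in which 27.9% of 13288 tested genes were called higher in males.

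The sexes were compared in each generation apart. For Nphs1 the log2 difference of vehicle males and females was 3.79 (SE 0.35, limma adjusted p = 2.08e-10) in F1, 3.52 (SE 0.28, 1.37e-11) in F2 and 3.18 (SE 0.45, 2.23e-06) in F3. For Nphs1as it was 4.10 (SE 0.34, limma adjusted p = 1.41e-11) in F1, 3.56 (SE 0.27, 6.16e-12) in F2 and 3.33 (SE 0.43, 4.58e-07) in F3. Both were called in each generation, where 11.0%, 20.7% and 16.4% of the genes tested were called higher in males. The differences in F1 were 3.75 and 4.12 without the deep libraries and 3.73 and 4.08 with depth class as a term. Whether the sex difference itself differed between generations was not tested.

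With the exposed embryos included, the sexes stayed apart for Nphs1as and overlapped in part for Nphs1. Over all 53 males Nphs1 ran from 6.73 to 25.3, with a median of 16.5, and over all 48 females from 0.200 to 7.99, with a median of 1.30. It was below the lowest male in 44 of 48 females, and the lowest male was the F3 vehicle embryo D3402.3, which also had the lowest Nphs1as of the males. Nphs1as ran from 9.95 to 31.2 in males, with a median of 18.7, and from 0.200 to 8.62 in females, with a median of 1.10, so that every female stood below every male. In 42 litters both sexes were sequenced, and in 42 of 42 every brother exceeded every sister for both genes. The smallest ratio was in litter C4258 (F1, 2 mg/kg-day), where the brother had 11.3 and the sister 5.27 normalized counts of Nphs1, and 11.2 and 4.87 of Nphs1as. The median ratio of the lowest brother to the highest sister was 14.8 for Nphs1 and 14.6 for Nphs1as. In bulk samples, fewer cells that express a gene and less RNA per cell cannot be told apart.

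The reads behind these values were few in females. Nphs1 had 2 to 199 reads, with a median of 11, in the 47 females with recovered reads, and 46 to 1443 reads, with a median of 141.5, in the 52 such males. Nphs1as had 2 to 145 reads, with a median of 10, in those females and 68 to 1361 reads, with a median of 153, in those males. Neither gene was at 0 in any embryo.

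**Figure D1:**
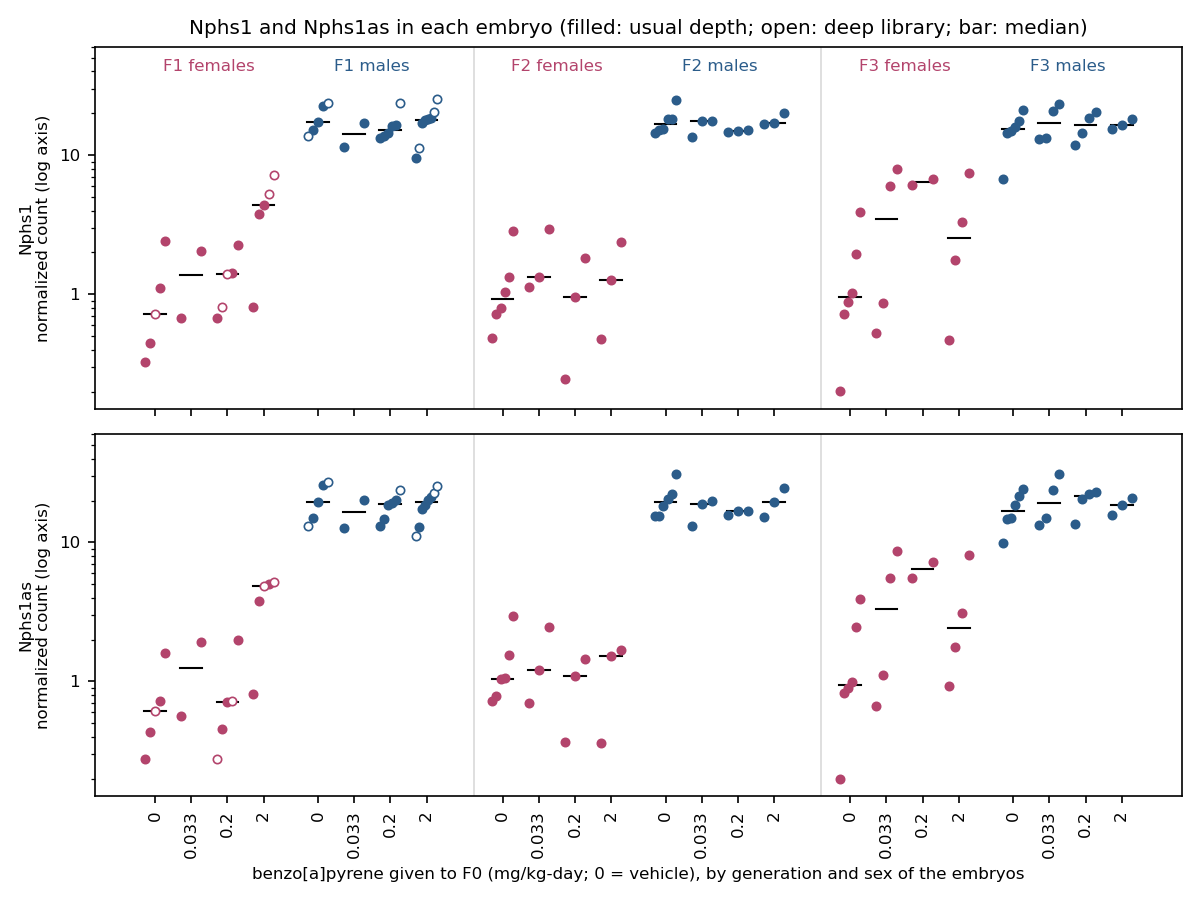
Normalized counts of Nphs1 (upper panel) and Nphs1as (lower panel) in each embryo on log axes, by generation, sex and dose of the F0 dam, with a bar at each group's median and open points for the 11 deep libraries. Males lie between 6.73 and 31.2 in both panels, and every female at 3.80 or above is in the F1 group at 2 mg/kg-day or in F3.

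In order of group means, Nphs1 rose from 1.003 (SD 0.843, n = 5) in F1 vehicle females to 6.42 (SD 0.440, n = 2) in F3 females at 0.2 mg/kg-day over the 12 female groups. Over the 12 male groups it rose from 14.3 (SD 3.96, n = 2) in F1 males at 0.033 mg/kg-day to 18.5 (SD 4.37, n = 5) in F1 vehicle males. Nphs1as rose from 0.730 (SD 0.519) to 6.39 (SD 1.23) over the same first and last female groups. In males the lowest group was again F1 at 0.033 mg/kg-day with 16.4 (SD 5.16), and the highest was F3 at 0.033 mg/kg-day with 20.8 (SD 8.20, n = 4). For both genes, the only neighbours in this order that differed by more than the larger of their SDs were the highest female and the lowest male group.

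The rise in F1 females at 2 mg/kg-day was used to choose both genes and is given without a test. In embryos C4219.4, C4258.2, D1824.1, D2582.1 and D2587.1 of that group, Nphs1 was 7.16, 5.27, 4.40, 3.80 and 0.816 normalized counts. In the 5 F1 vehicle females it was 0.722, 0.324, 2.41, 0.450 and 1.11. All treated embryos but D2587.1 stood above the highest vehicle embryo, so the groups overlapped through that embryo. Nphs1as was 5.22, 4.87, 5.01, 3.80 and 0.816 in the same treated embryos, and 0.616, 0.432, 1.61, 0.719 and 0.278 in the vehicle embryos. D2587.1 was again the only treated embryo within the vehicle range. The mean log2 difference was 1.62 for Nphs1 and 1.77 for Nphs1as. The 2 highest treated embryos for Nphs1, C4219.4 and C4258.2, were deep libraries, and without the deep libraries of F1 the differences were 1.13 and 1.43. The reads of Nphs1 in the 5 treated embryos, in the order above, were 199, 104, 29, 16 and 6, and those of Nphs1as were 145, 96, 33, 16 and 6.

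The lower doses in F1 females gave no such rise. Nphs1 was 2.05 and 0.681 in the 2 embryos at 0.033 mg/kg-day, and 1.39, 0.808, 0.678, 2.25 and 1.43 in the 5 embryos at 0.2 mg/kg-day. Nphs1as was 1.92 and 0.567 in the former, and 0.278, 0.729, 0.452, 1.97 and 0.715 in the latter. Both groups overlapped the vehicle group for both genes.

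The same dose was tested in F2 and F3. The rise that chose the genes was in F1 only, while the correlation that also chose them used embryos of every generation. In F2 females at 2 mg/kg-day Nphs1 was 0.479, 1.27 and 2.37, within the range of the 6 F2 vehicle females, which was 0.481 to 2.85 with a median of 0.922, except for an embryo just under it. In F3 females at this dose it was 1.76, 0.467, 3.32 and 7.47, while the 6 F3 vehicle females ran from 0.200 to 3.92 with a median of 0.952. E0103.2, with 7.47, was the only embryo above the vehicle range. Over both generations the log2 difference in females was 0.46 (SE 0.33, 95% confidence interval -0.19 to 1.12, limma adjusted p = 0.486, and 0.411 to 0.565 over the other alternatives). With 1 embryo left out, this difference ran from 0.22 to 0.72. Within F2 the difference of Nphs1 was 0.12 and within F3 0.80 (limma adjusted p = 0.943 and 0.469). Nphs1as was 0.359, 1.52 and 1.69 in the treated F2 females, and 1.76, 0.935, 3.09 and 8.18 in the treated F3 females. Its vehicle groups ran from 0.722 to 2.97 with a median of 1.05 in F2, and from 0.200 to 3.92 with a median of 0.951 in F3. The groups overlapped here too, and the log2 difference was 0.37 (SE 0.31, 95% confidence interval -0.26 to 1.0, limma adjusted p = 0.579, and 0.501 to 0.722 over the other alternatives). With 1 embryo left out, it ran from 0.13 to 0.58. Within F2 the difference of Nphs1as was -0.15 and within F3 0.88 (limma adjusted p = 0.93 and 0.389). Of 13111 genes, 0.00% were called over both generations by limma, with 2238 at an unadjusted p under 0.05. There edgeR called 0 by its quasi-likelihood test and 0 by its likelihood ratio test, with 1891 and 1966 at an unadjusted p under 0.05.

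F3 females were also compared at the lower doses. At 0.2 mg/kg-day Nphs1 was 6.73 in D1464.1 and 6.11 in D4021.1, and Nphs1as was 7.26 and 5.52. Both embryos stood above all 6 F3 vehicle females for both genes. The log2 difference from vehicle was 2.08 for Nphs1 (SE 0.64, 95% confidence interval 0.77 to 3.38) and 1.99 for Nphs1as (SE 0.61, 95% confidence interval 0.75 to 3.24). By limma the unadjusted p was 0.00283 and 0.00258, and the adjusted p was 0.337 for both. In this comparison 0.00% of 13139 genes were called, while 1677 had an unadjusted p under 0.05. Over the other alternatives the adjusted p ran from 0.121 to 0.465 for Nphs1 and from 0.126 to 0.465 for Nphs1as. The group held only 2 embryos. With 1 embryo of either group left out, the log2 difference ran from 1.83 to 2.36 for Nphs1 and from 1.73 to 2.27 for Nphs1as. At 0.033 mg/kg-day Nphs1 was 0.529, 0.863, 7.99 and 6.04, and Nphs1as was 0.661, 1.11, 8.62 and 5.51. That group split into 2 embryos within the vehicle range and 2 above it, D3501.3 and D3744.1. Its log2 difference was 0.86 for Nphs1 and 0.89 for Nphs1as, with a limma adjusted p of 0.99 for each. With 1 embryo left out these ran from 0.35 to 1.37 and from 0.38 to 1.37, with an adjusted p of at least 0.564 and 0.548.

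In F2 females the lower doses gave these values. At 0.033 mg/kg-day Nphs1 was 1.34, 2.96 and 1.13, and at 0.2 mg/kg-day 0.245, 0.955 and 1.82. Nphs1as was 1.22, 2.45 and 0.705 at the former dose, and 0.368, 1.09 and 1.45 at the latter. Each of these groups overlapped the F2 vehicle females for both genes.

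Male levels overlapped between doses. Nphs1 in F1 vehicle males was 23.6, 13.8, 17.2, 15.3 and 22.6, and it was 11.5 and 17.1 at 0.033, and ran from 13.2 to 23.9 with a median of 15.3 at 0.2, and from 9.61 to 25.3 with a median of 18.0 at 2 mg/kg-day. In F2 males it ran from 14.3 to 25.2 with a median of 16.7 in the vehicle group and was 13.4, 17.7 and 17.5, then 14.7, 15.3 and 15.0, then 16.7, 20.1 and 17.1 at the rising doses. In F3 males it ran from 6.73 to 21.1 with a median of 15.6 in the vehicle group and was 13.0, 13.3, 20.7 and 23.2, then 14.5, 11.8, 18.5 and 20.3, then 18.2, 15.4 and 16.5. Each treated group overlapped its vehicle group. Nphs1as had group means between 16.4 and 20.8 in the 12 male groups, with overlap in the same way. The log2 difference of F3 males at 0.2 mg/kg-day was 0.14 for Nphs1 and 0.22 for Nphs1as, and 0.28 and 0.38 without D1390.5, the male that clustered with females.

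Leaving aside the F1 females at 2 mg/kg-day, 17 comparisons of a dose with vehicle were tested for both genes, and those of a generation and sex share their vehicle embryos. Of these 34 tests, 0 passed an adjusted p of 0.05 by limma, 0 by the quasi-likelihood test of edgeR and 0 by its likelihood ratio test. At an unadjusted p under 0.05 the numbers were 2, 3 and 4 of 34. The log2 differences ran from -0.36 to 2.08 by limma. Across the table limma called 0.00% of genes in 16 of the 17 comparisons and 0.145%, which is 19 genes, in F2 males at 0.2 mg/kg-day. The number of genes at an unadjusted p under 0.05 ran from 25 to 2018 a comparison by limma. It ran from 37 to 1437 by the quasi-likelihood test and from 49 to 1545 by the likelihood ratio test. At most 5 genes were called in a comparison by the quasi-likelihood test and at most 83 by the likelihood ratio test.

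Whether an effect of dose differed between F2 and F3 was tested directly, since both generations descend from dams dosed over the same days. For females at 0.2 mg/kg-day the difference of F3 minus F2 was 2.28 on the log2 scale for Nphs1 (SE 0.74, limma adjusted p = 0.241) and 2.31 for Nphs1as (SE 0.71, adjusted p = 0.241). None of the 12 such tests of the 2 genes passed by limma or by either test of edgeR, and 2 were at an unadjusted p under 0.05 by each tool. In the same 6 comparisons limma called 0.587% of genes in males at 0.2 mg/kg-day, which is 77 of 13111, and 0.00% in the others. It had 109 to 1936 genes at an unadjusted p under 0.05. The 1936 were in females at 0.2 mg/kg-day, the comparison of both members' low unadjusted p by limma.

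Sense and antisense counts moved together, which is part of how the genes were chosen and is given without a test. Over 53 males the log2 values had a Pearson r of 0.897 and a Spearman rho of 0.880, and over 48 females 0.944 and 0.878. Without the 2 embryos farthest from the median of Nphs1, r was 0.899 in males and 0.932 in females. It was 0.882 and 0.955 without the deep libraries, and 0.986 in the 6 deep male libraries, while no value was computed for the 5 deep female libraries. Without the F1 females at 2 mg/kg-day, r in females was 0.933. Nphs1as had more reads than Nphs1 in 43 of 52 males, as many in 3 and fewer in 6. In 47 females the numbers were 20, 4 and 23, and the ratio of antisense to sense counts had a median of 1.13 in males and of 1 in females. The lowest ratio in females was 0.2, in the deep library C4228.3 with 40 reads of Nphs1 and 8 of Nphs1as.

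**Figure D2:**
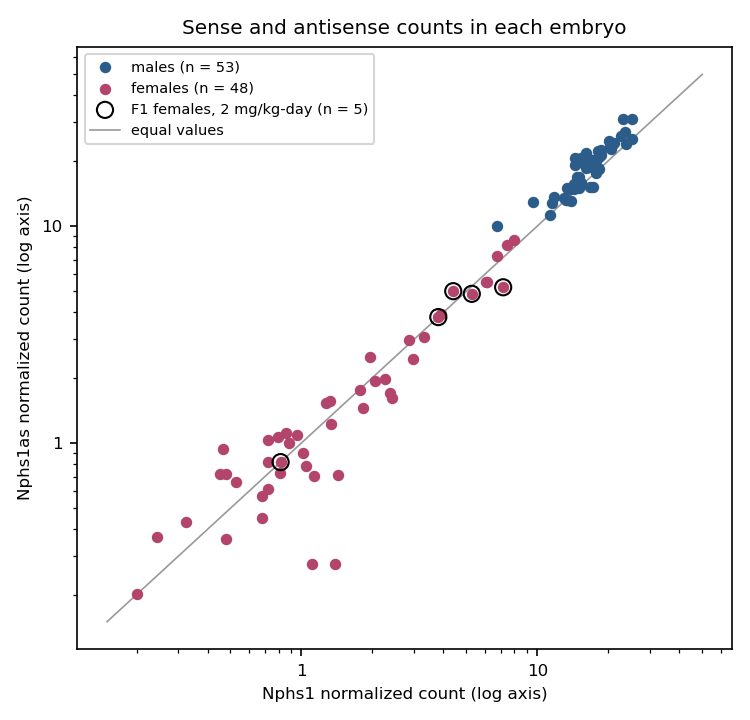
Normalized counts of Nphs1as against Nphs1 in 53 males and 48 females on log axes, with a line of equal values and rings around the 5 F1 females at 2 mg/kg-day. Points of both sexes follow the line, with a Pearson r of 0.897 in males and 0.944 in females.

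The annotation places Nphs1 on the plus strand of chromosome 7 (GRCm38, 30458315 to 30487223) and its antisense gene, Nphs1os, for which Nphs1as is a synonym, on the minus strand at 30462164 to 30465591. The exons of Nphs1 cover 6620 bases and those of Nphs1os 1339, and 597 bases belong to both. That is 44.6% of the exon bases of Nphs1os and 9.02% of those of Nphs1. They lie in 5 of the 30 exons of transcript Nphs1-201, namely exons 7, 8, 9, 10 and 12. The library kit does not mark the strand, so a read from these bases can come from either transcript. The other 742 exon bases of Nphs1os lie within the span of Nphs1 but outside its exons. Unspliced RNA of Nphs1 could also give reads there. The treatment of reads of overlapping genes in the counts is not stated. How far the like counts of the 2 genes rest on shared reads or on unspliced RNA of Nphs1 was not tested. Per kilobase of exon, the mean in males was 2.53 for Nphs1 (SD 0.574) and 14.1 for Nphs1as (SD 3.54). In females it was 0.332 (SD 0.324) and 1.57 (SD 1.60).

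**Figure D3:**
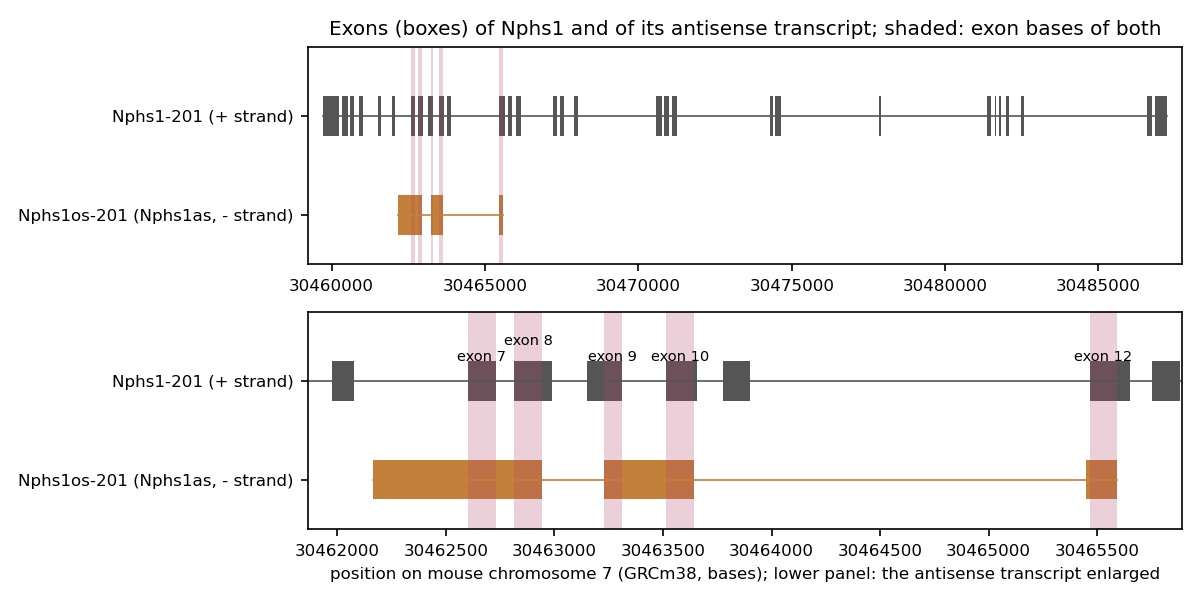
Exons of Nphs1-201 and of its antisense transcript along chromosome 7 in bases of GRCm38, with the region of the antisense transcript enlarged in the lower panel and the bases that are exon in both shaded. The shaded bases add up to 597 and fall in exons 7, 8, 9, 10 and 12 of Nphs1-201.

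The sequences of 2 of these coding exons, on the plus strand of GRCm38, show some of the bases where an unstranded read cannot be assigned. Bases that are exon of both transcripts are in capitals. The sequences were taken from the GENCODE transcript of Nphs1, and the antisense transcript holds the reverse complement of the capitals.
Nphs1 exon 9, chr7:30463152-30463309: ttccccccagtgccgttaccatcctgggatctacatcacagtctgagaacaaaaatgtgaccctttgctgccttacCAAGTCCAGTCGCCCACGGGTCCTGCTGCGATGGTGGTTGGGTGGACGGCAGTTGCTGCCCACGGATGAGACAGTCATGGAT
Nphs1 exon 12, chr7:30465466-30465652: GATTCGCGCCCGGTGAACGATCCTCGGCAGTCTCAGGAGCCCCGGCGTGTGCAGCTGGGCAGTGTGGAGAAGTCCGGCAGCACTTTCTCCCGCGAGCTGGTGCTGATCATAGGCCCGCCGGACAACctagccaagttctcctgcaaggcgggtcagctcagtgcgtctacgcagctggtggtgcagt
Exon 9 shares its last 82 bases and exon 12 its first 126.

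Genes beside Nphs1 on the chromosome were looked up, 3 on each side. Aplp1, Kirrel2 and Gm45979 lie before it, and Prodh2, Arhgap33os and Arhgap33 after it. Of these, Aplp1, Kirrel2 and Arhgap33 were in the table. Kirrel2, which encodes the nephrin partner Neph3 and lies on the minus strand, had a median of 0 in vehicle females, with 0.324 at most, and of 0.758 in vehicle males, with 2.42 at most. Its log2 difference was 1.04 (SE 0.18, limma adjusted p = 6.87e-07), higher than every female in 14 of 17 males. Aplp1, for an amyloid precursor-like protein, was higher in males by 0.57 (SE 0.18, limma adjusted p = 0.00508), with 4 of 17 males above every female. Arhgap33 was too low to be tested. The RefSeq window of 250 bases before to 50 after the start of Nphs1 (GRCm38.p6) was searched on both strands for GCGTG, the core of the Ahr response element, for the GC box GGGCGG, for the E-box CACGTG and for GCGTGGG, the core bound by WT1 and EGR proteins, which contains the first. By the GENCODE annotation this window lies inside exon 1 of Nphs1-201 and after the start of the gene given above, so the bases before that start were not searched. None of the 4 motifs was in the window, and 32.4%, 35.7%, 7.15% and 5.04% of 32851 such windows hold them. The window of Kirrel2 held 1 GC box.

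The partners of nephrin were taken as a list of 23 genes of the slit diaphragm, of which 20 were in the table and 19 were tested. The channel gene Trpc6 was absent from the table, and Kirrel1, listed apart, is in it only under its other symbol, Kirrel. Between vehicle males and females, 5 were called higher and 3 lower in males, and the median log2 difference was 0.26, against 0.00 over all 13288 genes tested, of which 3702 were higher and 3824 lower. Kirrel3, a Neph family gene, had a median of 0.133 in vehicle females and 1.04 in vehicle males (log2 difference 1.22, SE 0.18, limma adjusted p = 9.41e-09). Among the others past the threshold, the log2 difference was 0.70 for the protocadherin Fat1, 0.48 for the scaffold Magi1, 0.43 for the adaptor Nck2 and -0.55 for the polarity gene Pard3.

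To see whether either gene followed the share of another cell type, the summed level of 12 lists of marker genes was set beside both genes, males and females apart. For each of 48 relations a Pearson r and a Spearman rho of log2 values were computed with a two-sided permutation test of 100000 resamples, and the 96 p-values were adjusted together. The smallest p that this test can give is 1e-05.

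Sertoli transcripts were present in the male libraries and varied widely. The list of 13 genes, all in the table, summed to 39.7 to 2223 in males, with a median of 559.8, and to 15.3 to 117 in females, with a median of 22.8. Cst9, a cystatin of Sertoli cells, gave 61.6% of the male mean, and in females Aard gave 88.9% while Sox9, Amh, Dhh, Mro and Hsd17b3 had a median of 0. In males Nphs1 did not follow this list, with r = -0.127 (p = 0.364, adjusted p = 0.61) and rho = -0.054 (p = 0.701, adjusted p = 0.852), nor did Nphs1as, with r = -0.156 (p = 0.262, adjusted p = 0.521) and rho = -0.145 (p = 0.3, adjusted p = 0.554). The 3 males with the lowest Sertoli sums, D3371.2 with 39.7, D1390.5 with 65.8 and D3523.1 with 68.1, had 15.0, 11.8 and 21.1 normalized counts of Nphs1. D2595.1, with the highest sum of 2223, had 11.5. Without the deep libraries, r was -0.125 for Nphs1 and -0.157 for Nphs1as, and in the 6 deep male libraries 0.003 and -0.108. Without the 2 embryos farthest from the median of the list, it was -0.254 and -0.275, with an adjusted p of 0.238 and 0.18. All 12 tested genes of the list were higher in vehicle males than in vehicle females, with a median log2 difference of 2.61. Those with the smallest p were Cst9 (9.01), the prostaglandin synthase gene Ptgds (6.58), Mro (3.53), the steroid dehydrogenase gene Hsd17b3 (2.73) and the transcription factor genes Sox9 (3.13) and Gata4 (2.67).

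Markers of podocytes were low. Of 10 genes, 8 were in the table, and Foxc2 was among those absent. Their sum was 1.01 to 24.8 in males, with a median of 6.40, of which Wt1, a transcription factor that is also on the Sertoli list, gave 66.1%. In females it was 1.01 to 29.4, with a median of 2.30, and Magi2, also on the slit diaphragm list, gave 25.7%. Synpo in females and Tcf21 and Ptpro in males had a median of 0. Only 3 of the genes could be tested between the sexes, with a median log2 difference of 0.31, and 1, Wt1, was higher in males (2.52). In males r was -0.146 for Nphs1 (adjusted p = 0.554) and -0.187 for Nphs1as (adjusted p = 0.39), and in females 0.308 (adjusted p = 0.123) and 0.242 (adjusted p = 0.258).

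In females both genes were lower where meiotic transcripts were higher. The list of meiotic germ cells, with 11 of 12 genes in the table and Meioc absent, summed to 597 to 7588 in females, with a median of 2169, and the synaptonemal complex gene Sycp3 gave 32.0% of the mean. For Nphs1 r was -0.708 (p = 1e-05, adjusted p = 0.00024) and rho -0.660 (p = 1e-05, adjusted p = 0.00024). For Nphs1as r was -0.747 and rho -0.692, with the same p and adjusted p for each. Without the 2 embryos farthest from the median of the list, r was -0.661 and -0.710. It was -0.818 and -0.793 without the deep libraries, and -0.669 and -0.690 after the mean of each group was subtracted. Without the F1 females at 2 mg/kg-day, which chose the genes, it was -0.750 and -0.782, and the adjusted p was 0.00016 for each. No value was computed for the 5 deep female libraries alone.

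Sums of single embryos were read for the groups with high values. In the F1 females at 2 mg/kg-day the meiotic sums were 1679 in C4219.4, 2406 in C4258.2, 1105 in D1824.1, 1288 in D2582.1 and 1902 in D2587.1, and in the F1 vehicle females 7341, 3272, 1246, 2155 and 1691. Within the treated group the order of the sums did not follow that of Nphs1, since C4258.2 had the highest sum and the second highest Nphs1. The vehicle female with 1246, C4605.2, had the highest Nphs1 of its group, 2.41. In F3 the 2 females at 0.2 mg/kg-day, D1464.1 and D4021.1, had sums of 813 and 597, and D3501.3 and D3744.1, the high embryos at 0.033 mg/kg-day, had 688 and 617. E0103.2, the high embryo at 2 mg/kg-day, had 833, and the 3 other embryos of its group had 2174, 3247 and 1648. Among F3 vehicle females, D3526.1 had the highest Nphs1, 3.92, and a sum of 674, while the other 5 had sums of 1746 to 2990. In F2 vehicle females, D3133.2 had the highest Nphs1, 2.85, and the lowest sum, 758. Other lists were higher in some of the same embryos. The endothelial sums of the F1 females at 2 mg/kg-day were 6.66, 3.80, 2.28, 2.62 and 1.22, with D2587.1 lowest, against 1.23, 0.540, 1.47, 1.35 and 0.417 in the F1 vehicle females, so only D2587.1 lay within the vehicle range. C4258.2 had the highest Sertoli sum of all females, 117, and C4219.4 had 75.8, and both are deep libraries. The deep libraries C4228.3 and C4242.1, F1 females at 0.2 mg/kg-day, had Sertoli sums of 78.1 and 75.7. Their Nphs1 was 1.39 and 0.808. The deep vehicle female C4232.9 had a Sertoli sum of 33.1. In females 88.9% of the mean of the Sertoli list came from Aard. Aard ran from 11.6 to 35.7 in vehicle females, where Sox9 was at most 0.240, so a female sum need not stand for Sertoli cells. In F3, D3744.1 had the highest podocyte (29.4), pregranulosa (31.8) and stroma (54.7) sums of all females. The part that meiotic stage or other cells have in the high values of these F1 and F3 embryos was not tested.

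**Figure D4:**
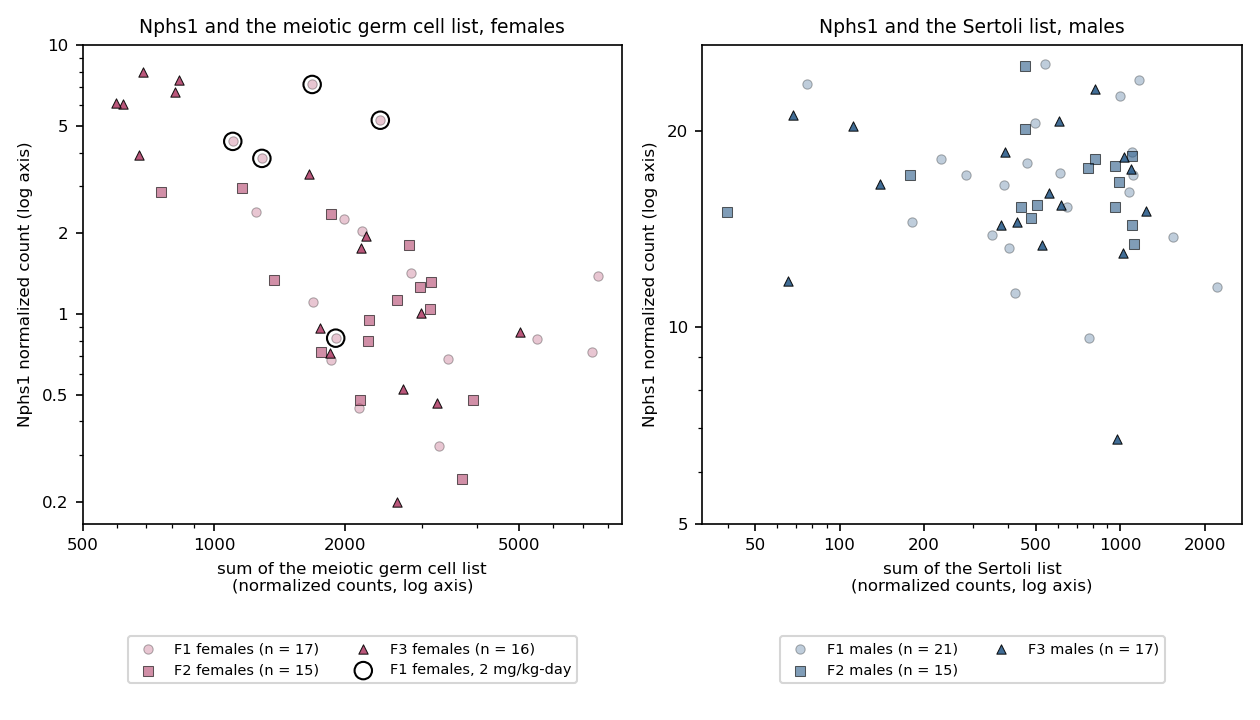
Normalized counts of Nphs1 on log axes against the summed normalized counts of the meiotic germ cell list in 48 females (left) and of the Sertoli list in 53 males (right), by generation, with rings around the F1 females at 2 mg/kg-day. In females Pearson r was -0.708, and in males it was -0.127.

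All but 1 of the 11 tested genes of the meiotic list were called lower in vehicle males than in females, with a median log2 difference of -1.83. The largest among those with the smallest p was -7.40 for Stra8, the gatekeeper of meiosis that retinoic acid induces, followed by -3.86 for the cohesin gene Rec8, -1.99 for the cohesin gene Smc1b, -1.93 for the recombinase gene Dmc1, -1.86 for the synaptonemal complex gene Sycp1 and -1.83 for the methyltransferase gene Prdm9. In males the list summed to 259 to 1444, with a median of 545, and r was -0.256 for Nphs1 (permutation p = 0.0632, adjusted p = 0.202) and -0.244 for Nphs1as (p = 0.0774, adjusted p = 0.225). The male with the highest sum, D3402.3, had the lowest Nphs1 and Nphs1as of all males. Without the deep libraries r of Nphs1 in males was -0.400 (adjusted p = 0.0475), so this relation passed the threshold only there, and over all alternatives r ran from -0.400 to -0.114.

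The list of male germ cells held 9 of 10 genes, with Dnmt3l absent, and summed to 166 to 464 in males, with a median of 351. In males r was 0.402 for Nphs1 (p = 0.00516, adjusted p = 0.0354) and rho 0.373 (p = 0.00634, adjusted p = 0.038), and for Nphs1as r was 0.372 (p = 0.00595, adjusted p = 0.038) and rho 0.348 (p = 0.0113, adjusted p = 0.0518). After group means were subtracted, r was 0.441 (adjusted p = 0.0107) and 0.482 (adjusted p = 0.00304). Under 3 alternatives r was a little lower and missed the threshold. Without the 2 embryos farthest from the median it was 0.343 (adjusted p = 0.085) and 0.323 (adjusted p = 0.116). Without D1390.5, r was 0.368 and 0.350 with an adjusted p of 0.108 for each, and without the deep libraries it was 0.341 (adjusted p = 0.122) and 0.350 (adjusted p = 0.0794). In the 6 deep male libraries it was 0.654 and 0.619, with an adjusted p of 0.754 for each. In females the list summed to 68.4 to 115, Nanos2 had a median of 0, and 57.9% came from the RNA helicase gene Mov10l1. Mov10l1 and the piRNA pathway gene Piwil2, noted after their values were seen, had higher means in vehicle females (55.4 and 31.2) than in vehicle males (35.5 and 23.6), so the female sum does not stand for male germ cells. There r was -0.459 for Nphs1 (permutation p = 0.00115, adjusted p = 0.011) and -0.321 for Nphs1as (p = 0.0262, adjusted p = 0.109). Without the F1 females at 2 mg/kg-day it was -0.417 (adjusted p = 0.0327) and -0.269 (adjusted p = 0.213). Of 9 genes tested between vehicle males and females, 6 were higher and 2 lower in males, with a median log2 difference of 3.30. Among those with the smallest p were the Nodal antagonist genes Lefty2 (6.87) and Lefty1 (5.81), the Nodal co-receptor gene Tdgf1 (4.65), Nodal (3.30) and the RNA-binding gene Nanos2 (1.79).

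Among lists of other cell types, the endothelial list followed both genes in females, with r = 0.564 for Nphs1 (p = 4e-05, adjusted p = 0.000768) and 0.515 for Nphs1as (p = 0.00017, adjusted p = 0.00272). Its level was low, 0 to 8.50 in females with a median of 1.24, Kdr and Emcn had a median of 0, Cdh5 was absent from the table, and Tek gave 36.1%. Without the deep libraries r was 0.522 and 0.545, and after group means were subtracted 0.429 and 0.387. Without the F1 females at 2 mg/kg-day, whose values chose the genes, it was 0.476 (adjusted p = 0.0107) and 0.430 (adjusted p = 0.0278). By rho with the same permutation test, the values without them were 0.378 (adjusted p = 0.0583) and 0.393 (adjusted p = 0.0468). After group means were subtracted, rho was 0.363 (adjusted p = 0.0522) and 0.333 (adjusted p = 0.0861). By rho the relation thus missed the threshold for Nphs1 in both settings and for Nphs1as in the latter. The fetal Leydig list, 1.30 to 6.94 in females with a median of 3.37 and Insl3 at 45.4%, had r = 0.421 (p = 0.00274, adjusted p = 0.0219) and 0.376 (p = 0.00818, adjusted p = 0.0422), and Cyp11a1 and Cyp17a1 had a median of 0. The mesonephros list, 1.56 to 9.79 in females with a median of 2.71 and Gata3 at 60.2%, had r = 0.376 (p = 0.00787, adjusted p = 0.0422) for Nphs1 and 0.298 (p = 0.0387, adjusted p = 0.138) for Nphs1as, with Pax2 and Wnt9b absent and Cdh16 at a median of 0. Without the deep libraries r for Nphs1 was 0.353 (adjusted p = 0.105) with the fetal Leydig list and 0.306 (adjusted p = 0.175) with the mesonephros list. Without the F1 females at 2 mg/kg-day it was 0.336 (adjusted p = 0.102) and 0.282 (adjusted p = 0.188), so neither relation passed without the values that chose the genes. For Nphs1as the relation with the fetal Leydig list missed the threshold under 4 of 4 alternatives (r 0.285 to 0.314, adjusted p 0.132 to 0.188) and by rho (0.308, adjusted p = 0.123). In males the pregranulosa list, 1.58 to 11.7 with a median of 3.77 and Rspo1 at 49.7%, had r = -0.384 with Nphs1as (p = 0.00438, adjusted p = 0.0323) and -0.206 with Nphs1 (p = 0.141, adjusted p = 0.356), with Foxl2 absent and Irx3 at a median of 0.

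No other relation had an r that passed. The macrophage list reached 58.3 in males and 138 in females, with C1qb as its most abundant gene and Adgre1 absent, and |r| was at most 0.146 for either gene and sex. The erythroid list ran from 0 to 2394 in males and to 848 in females, nearly all of it Hba-a1, and the stroma list, with Dcn at its head, reached 78.2 in males and 54.7 in females. For the erythroid list |r| was at most 0.079 and for the stroma list at most 0.282. Between vehicle males and females, the median log2 difference was -0.40 over 6 macrophage, 0.23 over 3 erythroid and 0.59 over 3 stroma genes tested. It was 0.29 over 4 pregranulosa genes (1 higher and 1 lower in males), 0.18 over 3 fetal Leydig genes (1 and 1), 0.61 over 2 endothelial genes (1 and 0) and -1.14 over 2 mesonephros genes (0 and 2). Of the germ cell list 3 of 6 genes were higher and 3 lower in males, with a median of 0.04. Of the low somatic lists, Wnt4 (-1.04), Insl3 (-0.57), Gata3 (-1.76) and Pax8 (-0.52) were lower in males and Lgr5 (1.02), Hsd3b1 (2.16) and Flt1 (0.79) higher. Insl3 missed the threshold by both tests of edgeR and in a fit of only the groups compared, and Pax8 by both tests of edgeR and with a pseudocount of 1.

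The genes whose log2 values were most like those of Nphs1, by Spearman rho among genes with a mean of at least 5 in the sex, were named without a test. Over 53 males and 8403 genes, Nphs1as ranked first with 0.880, which restates the correlation that chose both genes. Arhgap8, for a GTPase-activating protein, followed with 0.672. Next came Aimp2, for a scaffold of tRNA synthetases, with 0.629, the metal transporter gene Slc11a1 with 0.629, the GDP-fucose synthesis gene Tsta3 with 0.623 and the LIM domain gene Crip2 with 0.615. Over 48 females and 8395 genes, the highest were the serpin gene Serpinb9b with 0.848, the meiotic kinase gene Aurkc with 0.844, the queuine transferase gene Qtrt1 with 0.819, the protease gene Mbtps1 with 0.817 and the calcium-binding protein gene Scgn with 0.816. Nphs1as had 0.878 in females and was not ranked there, since its mean was below 5. Apart from Nphs1as, no gene was named in both sexes. Only a few genes were named for each sex, and the overlap that chance would give was not tested.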

How the data were processed

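The signal is the table of normalized counts that the authors deposited, which they made with Trim Galore, STAR on GRCm38, Rsubread and the TMM factors of edgeR. Versions, strand setting and the treatment of reads in overlapping genes were not stated. Both genes and the lists were chosen with earlier results of these data known. Whole reads were recovered for 99 of 101 embryos by finding the step between values, and 1423762 nonzero values all lay within 0.05 of a whole read. Genes with a mean under 0.5 were left out of tests. Log2 of the value plus 0.5 was fitted with group means in limma with a trended prior, and p-values were adjusted by Benjamini and Hochberg over all genes tested. The fits were tested on simulated data. Alternatives were a pseudocount of 0.1 or 1, no minimum mean or a minimum of 5, upper quartile scaling, edgeR on recovered reads, a fit of only the groups compared, litter as a random block, depth class as a term, leaving out deep libraries and leaving out each embryo. Alternatives chosen after the data had been seen were leaving out F1 females at 2 mg/kg-day or D1390.5 in correlations, each generation apart, and those for F3 minus F2, for named genes and for likeness. Named genes were the members of a list past an adjusted p of 0.05 between vehicle males and females, up to 6 with the lowest p a list, the 3 neighbours on each side, and the 5 genes most like Nphs1 in each sex. Brothers and sisters of a litter were compared by their values, without a paired test. Exons are from GENCODE M21, with exons of all transcripts joined for lengths. Python 3.11.15 with numpy 2.4.6, pandas 2.3.3, scipy 1.17.1 and matplotlib 3.10.9, and R 4.3.3 with limma 3.58.1 and edgeR 4.0.16 were used.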

Additional observations from a re-analysis of the deposited data

Results flagged for a closer look

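Among 28 sets of a gene in a group of 4 to 10 embryos, 5 values stood far from the rest of their group by the ratio of their gap to the range. Chance gives this in about 1 of 20 independent sets of normal values. Here the counts were not on a log scale and the 2 genes are correlated, so the 5 cannot be set against that rate. In F1 males at 0.2 mg/kg-day, C4228.1 had 23.9 normalized counts of Nphs1 (ratio 0.689, n = 6), and it is a deep library. In F2 vehicle males, D3133.5 had 25.2 (ratio 0.635, n = 6), and in F2 vehicle females its littermate D3133.2 had 2.85 of Nphs1 (ratio 0.645, n = 6) and 2.97 of Nphs1as (ratio 0.627). In F1 females at 0.2 mg/kg-day, D2506.2 had 1.97 of Nphs1as (ratio 0.734, n = 5). None of the 12 tests of a dose effect in F3 minus F2 passed the threshold by limma, with 2 at an unadjusted p under 0.05, and none by either test of edgeR, with 2 each. The 2 by limma were in females at 0.2 mg/kg-day, where 1936 of 13111 genes had an unadjusted p under 0.05.

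What limits these results is the number of embryos, 2 to 8 a treated group, shared litters, and few reads of either gene in females. The library does not mark strand, and cells were sorted on EGFP and not by stage.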

How the results depend on the processing

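For both genes the sex difference kept its direction and its side of the threshold under 76 of 76 alternatives and 136 of 136 omissions of 1 embryo. Over all generations it ran from 3.10 to 3.99 for Nphs1 (adjusted p 1.11e-42 to 3.61e-17) and from 3.26 to 4.16 for Nphs1as (3.42e-50 to 3.13e-18). The number of genes higher in males fell to 2413, 985, 1766 and 1368 (all generations, F1, F2, F3) with a minimum mean of 5, which tests fewer genes. The other 34 of 38 counts stayed within 1.5 times. F2 and F3 females at 2 mg/kg-day kept direction and side in 18 of 18 and 38 of 38 cases, F3 minus F2 in 108 of 108, and the tested dose comparisons in 326 of 326 alternatives and 291 of 318 omissions. In no dose comparison did an omission bring a call, and where it left 1 embryo in a group, that embryo is assumed to vary like the other groups. Direction changed in the following, with the range over omissions, and the cause was not tested. For Nphs1 these were F1 females (-0.19 to 0.92) and F2 males (-0.18 to 0.01) at 0.033, F2 females (-0.59 to 0.23) and F3 males (-0.06 to 0.28) at 0.2, and F2 females (-0.25 to 0.53) and F2 males (-0.05 to 0.14) at 2 mg/kg-day. For Nphs1as they were F1 females (-0.12 to 1.07), F1 males (-0.58 to 0.05) and F2 females (-0.27 to 0.38) at 0.033, F1 females (-0.17 to 0.30), F1 males (-0.25 to 0.01) and F2 females (-0.56 to 0.03) at 0.2, and F1 males (-0.23 to 0.02), F2 females (-0.39 to 0.28), F2 males (-0.22 to 0.13) and F3 males (-0.02 to 0.23) at 2 mg/kg-day. The F1 females at 2 mg/kg-day, which have no test, ran from 1.13 to 2.23 for Nphs1 and from 1.43 to 2.49 for Nphs1as over the alternatives.

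The r of the 2 genes moved by more than its spread to 0.986 in the deep male libraries and to 0.990 in F3 females, and was within it in 16 of 18 cases. The likeness of 20 of 20 stayed within its interval. Other named genes kept direction throughout and lost the threshold in 6 of 335 alternatives (Insl3 and Pax8, 3 each) and 10 of 1326 omissions (Pax8).

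Relations with the marker lists kept direction in 193 of 216 cases and side in 170 of these, and for the rest the cause was not tested. In 19 cases a call was lost, all with the male germ cell list or, for Nphs1as in the deep libraries, the pregranulosa list in males, and with the fetal Leydig and mesonephros lists in females. In 4 cases a call was gained, with the endothelial list (Nphs1, males, group means subtracted), the meiotic list (Nphs1, males without deep libraries), the male germ cell list (Nphs1as, females, group means subtracted) and the germ cell list (Nphs1as, females without the F1 group at 2 mg/kg-day). In the other 23 below, r changed sign. In the 6 deep male libraries r of Nphs1 was 0.480 with the podocyte, 0.003 with the Sertoli, 0.170 with the fetal Leydig, -0.067 with the mesonephros, 0.437 with the germ cell and 0.654 with the male germ cell list, and r of Nphs1as 0.400 with the podocyte, -0.349 with the pregranulosa, 0.009 with the fetal Leydig, 0.484 with the stroma, 0.442 with the germ cell and 0.619 with the male germ cell list. Without the deep libraries, in males Nphs1 had 0.009 with the macrophage, -0.138 with the stroma, 0.341 with the male germ cell and -0.400 with the meiotic list, and Nphs1as 0.021 with the macrophage and 0.350 with the male germ cell list, and in females Nphs1 had 0.353 with the fetal Leydig and 0.306 with the mesonephros list, and Nphs1as 0.006 with the pregranulosa and 0.314 with the fetal Leydig list. Without the 2 embryos farthest from the median, the male germ cell list had 0.343 and 0.323 (Nphs1, Nphs1as) in males, and in females the fetal Leydig list had 0.363 and 0.309, the erythroid list -0.099 and -0.151, and the mesonephros list 0.303 with Nphs1. After group means were subtracted, Nphs1 had 0.353 with the endothelial and -0.008 with the erythroid list in males and -0.108 with the macrophage list in females, and Nphs1as 0.305 with the fetal Leydig and -0.372 with the male germ cell list in females. The next alternatives were chosen after seeing the data. Without D1390.5, Nphs1 had -0.011 with the stroma and 0.368 with the male germ cell list, and Nphs1as 0.350 with the latter. Without the F1 females at 2 mg/kg-day, Nphs1 had 0.066 with the pregranulosa, 0.336 with the fetal Leydig, -0.005 with the macrophage and 0.282 with the mesonephros list, and Nphs1as -0.061 with the Sertoli, 0.086 with the pregranulosa, 0.285 with the fetal Leydig, -0.014 with the erythroid and -0.399 with the germ cell list.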
